A study of Mus musculus with 16 samples.

Results

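The Hox genes of 16 mouse osteosarcomas are described here. The members were the protein-coding genes of the deposited count table whose symbol is Hox, a cluster letter from a to d and a number, and 34 of the 25054 genes in the table met this rule. They comprised 11 genes of cluster A (GRCm38, chromosome 6, 52155590 to 52260880), 8 of cluster B (chromosome 11, 96271457 to 96354012), 9 of cluster C (chromosome 15, 102921103 to 103036852) and 6 of cluster D (chromosome 2, 74668310 to 74748442), each counted over the whole gene. The other 5 annotated members of the family, *Hoxb1*, *Hoxb13*, *Hoxd1*, *Hoxd11* and *Hoxd12*, had no entry in the count table that met this rule, so they were not analysed here. The tumors came from mice with OsxCreERT2+/-, p53fl/fl and Rb1fl/fl alleles, and the study compared those that also carried Arid1afl/fl (KO) with those that did not (WT). Once tamoxifen is given, the Cre recombinase acts in cells that express Osterix, a transcription factor of pre-osteoblasts, so the floxed p53 and Rb1 alleles are shared by both groups. All mice received 400 ug of tamoxifen per gram of body weight at 1 month of age and were over 6 months old, and both sexes were included. The 8 KO tumors, Massa, Medusa, Montana, Ohio, Prince, Grilka, Zelda and Oregon, each bear a name of their own, and the labels give no body site for them. The 8 WT tumors bear 4 animal codes and a site. N42 gave tumors of the right pelvis, the right femur, the left shoulder and a left limb that is not specified further. N43 gave tumors of the spine and the pelvis, N215 a tumor of the right hind limb, and N25 a tumor labeled lung, whose bone of origin is not given in the labels.

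Hox genes encode homeodomain transcription factors that give cells their position along the body. They lie in clusters in which the order of the genes follows the order of their domains from head to tail, and genes at the same place in different clusters form a paralog group. Low-numbered groups are active from the hindbrain and neck backward, middle groups in the trunk, and high-numbered groups in the lumbar, sacral and tail regions and, for clusters A and D, along the limb toward the hand or foot. Adult connective tissue and bone cells keep much of the Hox pattern of the place where they arose, and Polycomb and trithorax complexes, acting at CpG-rich DNA, hold the genes silent or active.

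The promoters of 3 members with some of the widest differences between tumors are shown with each CpG in capitals, from 250 bases before to 50 bases after the transcription start, as RefSeq gives them on GRCm38.p6. *Hoxa13*, the last gene of cluster A, lies on the reverse strand in the window chr6:52260831-52261130. *Hoxd8* and *Hoxd9* are neighbors on the forward strand of cluster D, in the windows chr2:74704365-74704664 and chr2:74697513-74697812.
Hoxa13: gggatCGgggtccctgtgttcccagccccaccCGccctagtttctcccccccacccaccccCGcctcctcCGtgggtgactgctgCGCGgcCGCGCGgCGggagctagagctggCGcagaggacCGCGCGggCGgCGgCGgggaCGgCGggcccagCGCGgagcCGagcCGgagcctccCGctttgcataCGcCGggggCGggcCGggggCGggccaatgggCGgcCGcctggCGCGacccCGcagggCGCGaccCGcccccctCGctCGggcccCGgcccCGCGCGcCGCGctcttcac
Hoxd8: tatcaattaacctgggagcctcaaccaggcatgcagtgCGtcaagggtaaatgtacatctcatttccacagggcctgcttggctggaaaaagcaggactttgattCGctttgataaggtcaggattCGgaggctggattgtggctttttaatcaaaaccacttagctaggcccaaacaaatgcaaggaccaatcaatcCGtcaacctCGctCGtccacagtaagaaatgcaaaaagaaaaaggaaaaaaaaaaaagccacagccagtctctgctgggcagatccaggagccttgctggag
Hoxd9: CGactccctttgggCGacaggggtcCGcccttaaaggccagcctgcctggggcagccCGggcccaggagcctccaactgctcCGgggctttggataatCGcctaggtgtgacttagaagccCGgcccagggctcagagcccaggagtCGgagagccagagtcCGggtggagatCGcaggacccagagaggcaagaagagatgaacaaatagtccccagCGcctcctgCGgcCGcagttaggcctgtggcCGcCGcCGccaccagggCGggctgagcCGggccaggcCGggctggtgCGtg
The *Hoxa13* window held 45 CpG and was 81.0% G or C, the *Hoxd9* window held 20 CpG at 68.3%, and the *Hoxd8* window held 6 CpG at 46.7%. The median over all 32851 promoter windows was 7 CpG, and over the 19 windows found for 18 of the 34 members it was 15. The composite Pbx-Hox motif TGATNNAT, searched on both strands, was in none of the 3 windows and in 8.85% of all promoters.

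The libraries differed in depth and in the genes of other tissues they held. Total counts were 1109487 to 15059640 in KO and 7806160 to 16962329 in WT. Levels are given as CPM, the count scaled to the TMM-normalized library size, and a gene was called detected at 4 or more counts. The 3 counts that a count of 0 allows correspond to 6.69 CPM in Massa, 4.03 CPM in Grilka, 0.203 to 0.839 CPM in the other KO tumors and 0.146 to 0.340 CPM in WT, for counting error only. *Arid1a*, counted over the whole gene, was 187 ± 57.5 CPM in KO and 167 ± 31.8 CPM in WT (SD, n = 8 each), with a log2 fold change of 0.16 (SE 0.22, edgeR adjusted p = 0.715), so these counts do not check the deletion. The 8 osteoblast markers, such as *Col1a1* and *Ibsp*, summed to 444 to 42310 CPM in KO and 1842 to 54678 CPM in WT. Muscle markers reached 68906 CPM in Montana and 124278 CPM in Oregon, salivary gland markers 103286 CPM in Prince, and lung markers 11661 CPM in Massa and 26308 CPM in the N25 lung tumor. Zelda had 1205 CPM of the 6 liver markers, against at most 22.3 CPM in any other tumor, and 764 CPM of the 6 erythroid markers, whose next highest sum was 344 CPM in the N43 spine. Their part in the Hox results was not tested, and in bulk samples fewer cells of a type and less RNA per cell cannot be told apart.

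The WT tumors used broad sets of Hox genes, while the KO tumors ranged from almost none to a set as broad as in WT. Between 23 and 32 of the 34 genes were detected in a WT tumor (median 28) and between 2 and 28 in a KO tumor (median 21.5). Scaled down to the depth of Massa, the medians were 8.5 in WT and 6.5 in KO, so most of the genes are too low to be seen at the shallowest depth. Summed over the members, Hox transcripts were 62.7 to 259 CPM in WT and 3.57 to 354 CPM in KO, with medians of 193 and 192 CPM. The low end of KO was Prince, with 43 Hox counts in the deepest KO library. Prince also had the lowest sum of osteoblast markers of all tumors, 444 CPM, beside the salivary gland markers given above. Whether its low Hox level goes with the tissue sampled was not tested. The low end of WT was the N25 lung tumor with 971 Hox counts.

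**Figure D1:**
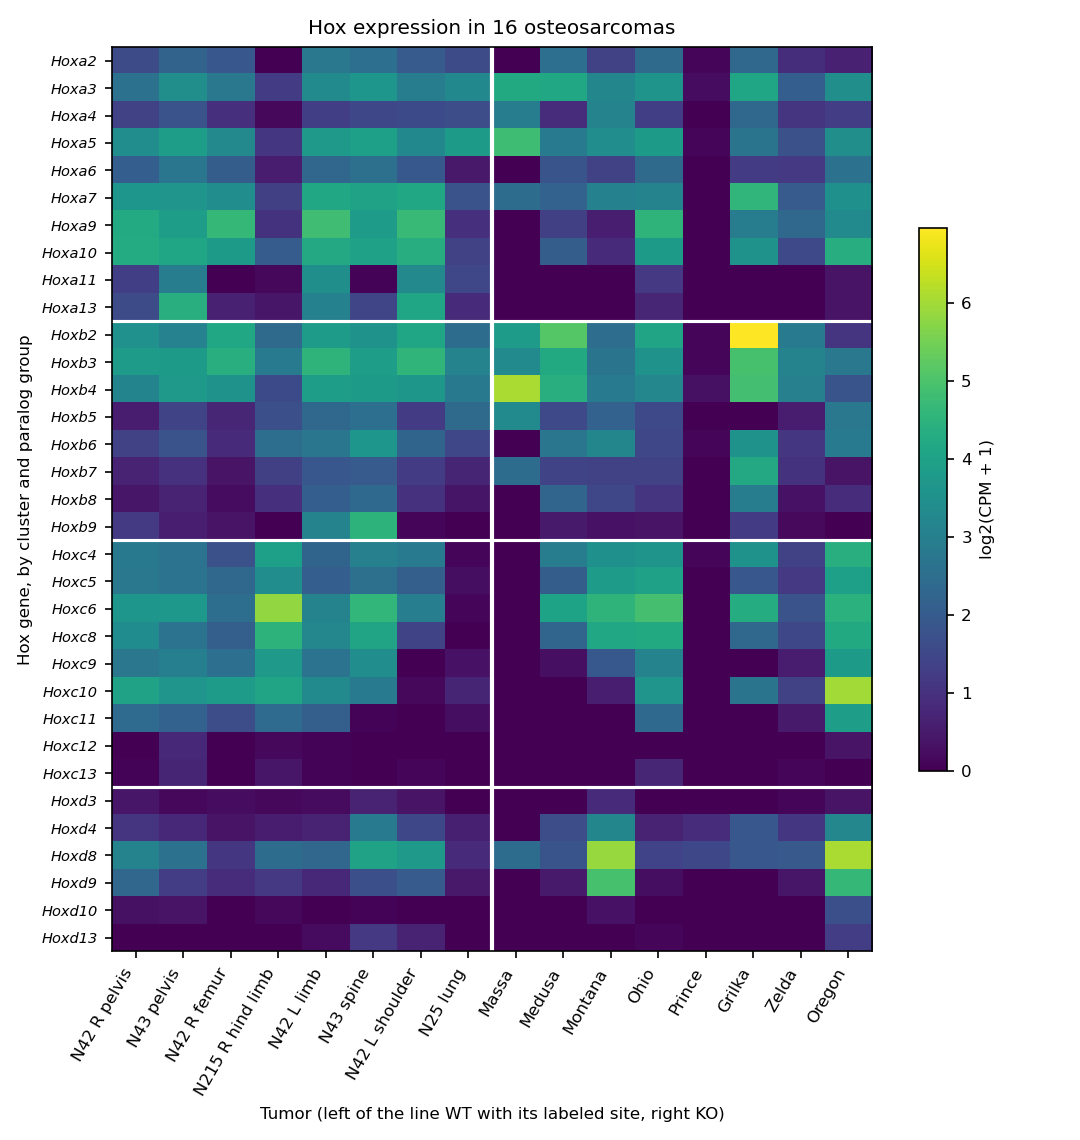
Expression of the Hox genes reported here (vertical axis, by cluster and paralog group) in the 16 tumors (horizontal axis), as log2(CPM + 1) in color. The WT tumors left of the line show broad profiles, and Prince and Massa, with 2 and 6 genes detected, are the emptiest columns.

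The gene with the highest level differed from tumor to tumor, and 7 of the 34 members led in at least 1 of them. Per kilobase of exon, the leading gene was *Hoxc10* in the N42 right pelvis, the N42 right femur and Oregon. *Hoxc6*, a gene of the thoracic and forelimb level, led in the N43 spine, the N215 hind limb and Ohio. *Hoxa5*, a gene of the neck and upper thorax that is also active in lung mesenchyme, led in the N42 left limb and the N25 lung tumor. *Hoxa13*, whose normal domains are the hand and foot and the end of the gut and genital tract, led in the N42 shoulder and the N43 pelvis. The other KO tumors were led by *Hoxb4* (Massa, Zelda), *Hoxb2* (Medusa, Grilka) and *Hoxd8* (Montana, Prince). The highest of these levels per kilobase was 35.4 CPM per kilobase of exon for *Hoxb2* in Grilka and the lowest was 0.665 for *Hoxd8* in Prince, which rests on 22 counts.

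Among the WT tumors with a labeled site, genes at the posterior end of cluster C followed the pelvis and hind limb. *Hoxc11*, a gene of the lumbosacral region and the hind limb, was 4.38 CPM in the N42 right pelvis, 3.56 CPM in the N43 pelvis, 2.10 CPM in the N42 right femur and 4.42 CPM in the N215 hind limb. It was 0.0549 CPM in the N43 spine, 0 in the N42 left shoulder and 0.194 CPM in the N25 lung, each at 3 counts or fewer. Every pelvis and hind limb tumor was thus above every tumor of another site. In the left limb tumor of N42, whose label does not say fore or hind, *Hoxc11* was 3.33 CPM.

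*Hoxc10*, its neighbor, patterns the lumbar spine and hind limb and showed the same order. It was 14.97 CPM in the N42 right pelvis, 11.4 CPM in the N43 pelvis, 13.01 CPM in the N42 right femur and 15.8 CPM in the N215 hind limb. It was 6.43 CPM in the N43 spine, 0.118 CPM in the N42 left shoulder and 0.645 CPM in the N25 lung, and 9.09 CPM in the left limb tumor. Here the spine tumor lay between the others, below each pelvis and hind limb tumor and above the shoulder and lung. Of the bases of the *Hoxc10* exons 8.70% are shared with *Hoxc5* on the same strand, where the counts cannot be assigned.

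*Hoxc9*, a gene of the thoracic to lumbar region, did not separate the sites, because the spine tumor had 9.73 CPM, within the 4.77 to 12.4 CPM of the pelvis and hind limb tumors. It was 0 in the shoulder tumor, which allows 0.177 CPM at its depth, and 0.258 CPM in the lung tumor. Along cluster C, the shoulder tumor thus ended at *Hoxc8* (1.71 CPM, 29 counts), the spine tumor at *Hoxc10*, and 3 of the pelvis and hind limb tumors at *Hoxc11*. In the N43 pelvis tumor *Hoxc12* and *Hoxc13*, the most posterior genes of the cluster, were also detected at 0.752 and 0.652 CPM (15 and 13 counts). The N25 lung tumor had 3 counts or fewer of *Hoxc4*, *Hoxc5*, *Hoxc6*, *Hoxc8* and *Hoxc11*, and 4 and 10 counts of *Hoxc9* and *Hoxc10*.

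**Figure D2:**
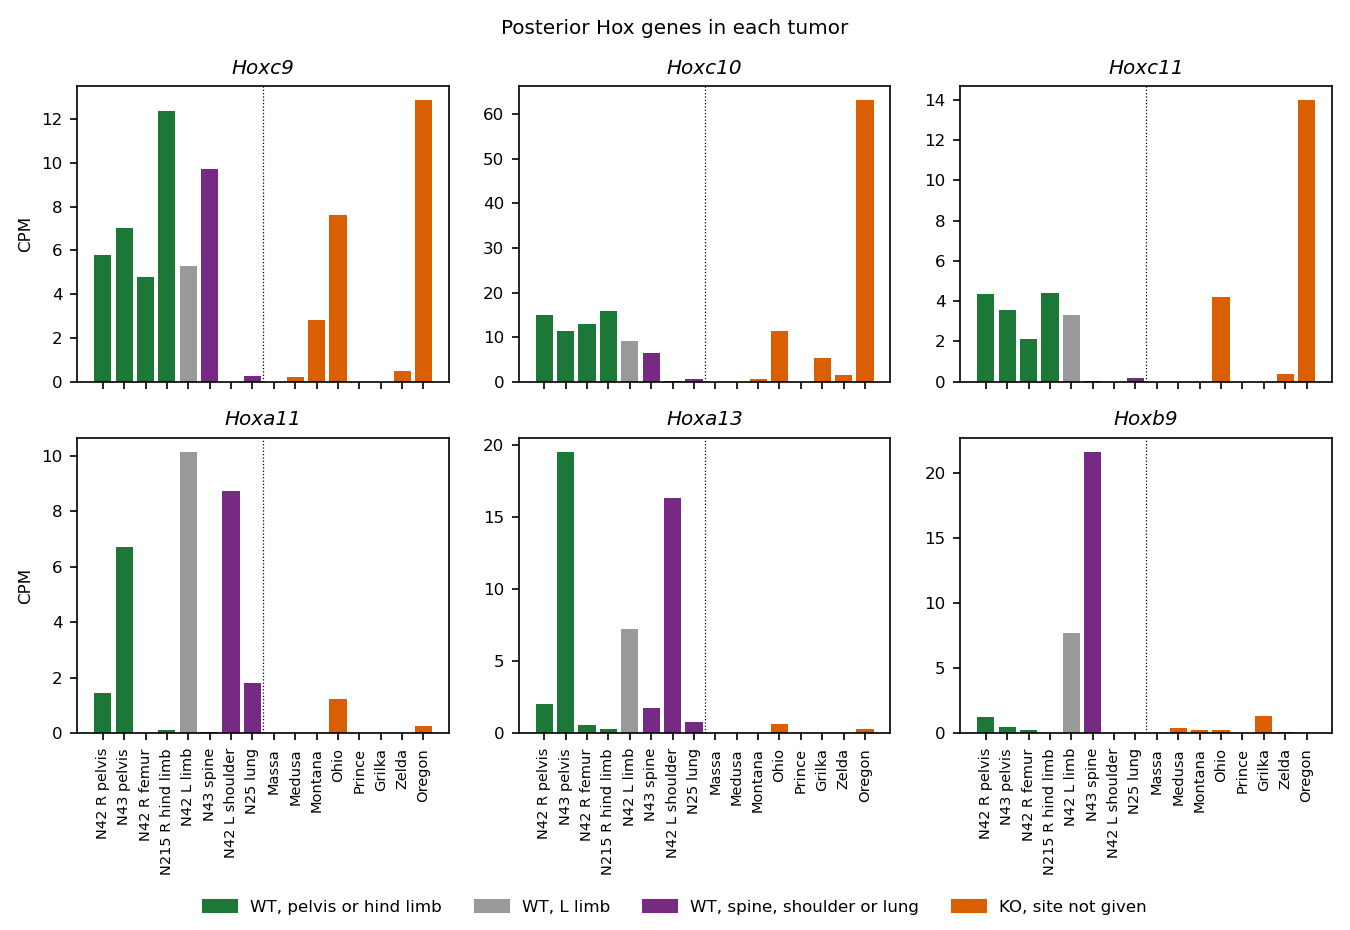
CPM (vertical axis, from 0, with its own scale in each panel) of 6 posterior Hox genes in each tumor (horizontal axis), with bars colored by the labeled site of WT tumors and in orange for KO. Hoxc10 and Hoxc11 are higher in the 4 pelvis and hind limb tumors than in the 3 tumors of spine, shoulder and lung, and Hoxa13 is high in the N42 shoulder and N43 pelvis tumors and near 0 in KO.

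The posterior genes of cluster A did not follow the labeled sites. *Hoxa13* was 19.6 CPM in the N43 pelvis and 16.4 CPM in the N42 shoulder, 7.27 CPM in the left limb, and 2.04 CPM in the N42 right pelvis. It was 1.76 CPM in the spine, 0.775 CPM in the lung, 0.568 CPM in the femur and 0.340 CPM (3 counts) in the N215 hind limb. *Hoxa11*, which patterns the forearm and lower leg, was 10.2 CPM in the left limb, 8.74 CPM in the shoulder, 6.72 CPM in the N43 pelvis, 1.81 CPM in the lung and 1.46 CPM in the N42 right pelvis, and had at most 1 count in the spine, femur and N215 tumors. The same 3 tumors therefore held the highest *Hoxa11* and *Hoxa13*. *Hoxa11os*, which is transcribed from the opposite strand across 35.0% of the *Hoxa11* exon bases, was also highest in these 3, at 2.73, 2.18 and 1.80 CPM, and the strand of counting is not given in the sources used here. *Hoxa9* and *Hoxa10*, genes of the lumbar level and of the upper limb segments, were between 12.95 and 27.5 CPM in 6 of the 8 WT tumors. In the N215 hind limb they were 1.02 and 3.06 CPM and in the lung tumor 0.904 and 1.55 CPM.

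*Hoxb9*, a gene of the thorax, was 21.6 CPM in the spine tumor and 7.68 CPM in the left limb, and 0 to 1.264 CPM in the other 6 WT tumors. *Hoxb8*, the neighboring gene, was also highest in those 2, at 4.23 and 3.23 CPM, and was 0.170 to 1.00 CPM elsewhere in WT. *Hoxd8* and *Hoxd9*, of paralog groups 8 and 9 in cluster D, reached 15.2 and 3.94 CPM in WT, in the spine and the N42 right pelvis. *Hoxd13*, which patterns hand and foot, was detected in the spine (1.21 CPM, 22 counts) and the shoulder (0.590 CPM, 10 counts). *Hoxd10* did not exceed 6 counts in WT.

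The 4 pelvis and hind limb tumors were compared with the 3 tumors of shoulder, spine and lung by edgeR's quasi-likelihood test, fitted to all genes. None of the 28 Hox genes tested passed an adjusted p of 0.05, and of all 17371 genes 0% did. *Hoxc11* had a log2 fold change of 5.34 (SE 0.89, edgeR unadjusted p = 0.000393, adjusted p = 0.9996), and *Hoxd4*, a gene of the neck level, one of -2.14 (SE 0.84, unadjusted p = 0.0362), the only 2 Hox genes with an unadjusted p under 0.05, against 3.39% of all genes. DESeq2 called 5 of 23412 genes (0.0214%), of which *Hoxc11* was 1, at a log2 fold change of 5.48 (SE 0.90, adjusted p = 2.89e-05). *Hoxc11* had 3 counts or fewer in each of the shoulder, spine and lung tumors. It therefore passed the edgeR filter on low counts through the pelvis and hind limb tumors alone. Its p-values, and its lack of overlap given below, are thus no independent support for a link to the site. *Hoxc10* had a log2 fold change of 2.52 (SE 1.09, adjusted p = 0.9996 in edgeR). Without the N43 spine tumor the log2 fold changes were -0.86 for *Hoxd4* and 5.14 for *Hoxc10*. *Hoxc10* and *Hoxc11* were the 2 of 28 members whose groups did not overlap in CPM, against 2.91% of all genes. With 2 counts of *Hoxc10* in the shoulder tumor, the shoulder, spine and lung tumors alone would not have passed it through the filter. Its lack of overlap is thus likewise no independent support for a link to the site. The median log2 fold change was -0.17 over the Hox genes and 0.00 over all genes. Within N42 and N43, the mice with tumors on both sides of the comparison, *Hoxc11* was 6.68 higher on the log2 scale with the mouse as a block (SE 0.96, adjusted p = 0.997), the direction seen over all 7 tumors.

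Among the KO tumors, the posterior genes of cluster C were highest in Oregon and Ohio. Oregon had the highest *Hoxc10* of all tumors at 63.2 CPM, the highest *Hoxc11* at 13.98 CPM and the highest *Hoxc9* at 12.9 CPM. Ohio followed with 11.4 CPM of *Hoxc10*, 4.198 CPM of *Hoxc11* and 7.63 CPM of *Hoxc9*, and Zelda had 1.56, 0.407 and 0.475 CPM. *Hoxc11* was at 0 in the other 5 KO tumors. Ohio also had the highest *Hoxa9* in KO, 22.0 CPM, and it was the KO tumor in which *Hoxa13* (0.668 CPM, 7 counts), *Hoxa11* (1.24 CPM, 13 counts) and *Hoxc13* (0.668 CPM, 7 counts) were detected. *Hotair*, a long noncoding RNA of cluster C between *Hoxc11* and *Hoxc12*, had 13 counts in Ohio and at most 2 in any other KO tumor.

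Montana and Oregon shared a high level of cluster D. *Hoxd8* was 58.4 CPM in Montana and 66.3 CPM in Oregon, against 1.62 to 4.46 CPM in the other KO tumors and 0.775 to 15.2 CPM in WT. *Hoxd9* was 29.6 and 24.0 CPM in the pair, 0 to 0.422 CPM in the other KO tumors and 0.387 to 3.94 CPM in WT. These are also the 2 tumors with the muscle markers given above, whose highest sum in WT was 6666 CPM. Beyond *Hoxd9* they differed, since *Hoxd10* and *Hoxd13* had 8 and 5 counts in Oregon and 1 and 0 in Montana, and *Hoxc10* was 0.510 CPM in Montana.

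In Medusa, Grilka and Massa the leading genes were anterior ones of cluster B, and Massa and Prince had no count on groups 9 to 13. *Hoxb2*, a hindbrain and neck gene, was 124 CPM in Grilka (92 counts) and 34.001 CPM in Medusa, and at most 16.6 CPM in any other tumor. *Hoxb4*, a gene of the neck level that is also active in blood progenitors, was 66.9 CPM in Massa on 30 counts. *Hoxc10* was the one posterior gene of cluster C detected in Grilka, at 4 counts (5.37 CPM), and *Hoxc9* to *Hoxc13* were at 0 or 1 count in Medusa. In cluster A both reached further back, with *Hoxa9* and *Hoxa10* at 1.48 and 3.17 CPM in Medusa (7 and 15 counts) and at 6.71 and 10.7 CPM in Grilka (5 and 8 counts). In Massa, 73 Hox counts fell on 10 genes and none on paralog groups 9 to 13, where 3 counts would be 6.69 CPM. In Prince, 22 counts of *Hoxd8* and 10 of *Hoxd4* made up most of the 43 Hox counts and were the only 2 genes detected, and no gene of groups 9 to 13 had a count, at a depth where 3 counts are 0.249 CPM. Prince is the tumor with the salivary gland markers, and it also had 223 CPM of *Pitx1*, a transcription factor of the hind limb and also of the jaw and oral epithelium, against at most 3.53 CPM in any other tumor.

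The share of the Hox signal on paralog groups 9 to 13 summarizes these patterns. Per kilobase, it was 45.3% in Oregon, 24.7% in Ohio, 17.1% in Montana, 13.3% in Zelda, 6.61% in Grilka and 2.96% in Medusa, and 0 in Massa and Prince. It was 38.3% in the N43 pelvis, 37.0% in the N42 right pelvis, 34.8% in the left limb, 34.4% in the femur, 31.5% in the shoulder, 25.7% in the N215 hind limb, 25.02% in the spine and 10.3% in the lung. The medians were 9.95% in KO and 33.0% in WT, and the ranges overlapped. The clusters were used unevenly as well, since cluster C carried 80.1% of the signal in the N215 hind limb and 2.74% in the lung tumor, and cluster D 41.4% in Montana and 27.4% in Oregon but at most 9.58% in WT. In Prince cluster D carried 73.95%, of very few counts.

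**Figure D3:**
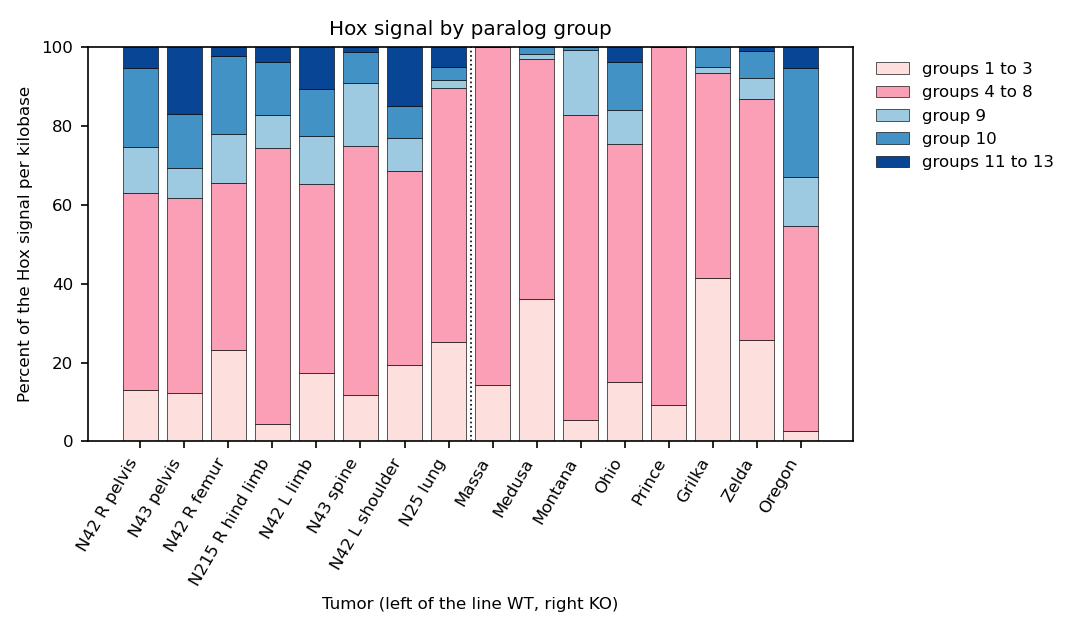
Percent of the Hox signal per kilobase of exon (vertical axis) by paralog group (colors) in each tumor (horizontal axis, WT left of the line). Groups 9 to 13, in blue, take 25.02% or more in 7 of the 8 WT tumors and 24.7% and 45.3% in Ohio and Oregon.

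The Hox profiles of the KO tumors were set against those of the WT tumors of known site by the Pearson correlation of log2(CPM + 1) over the 34 genes. The points of a pair share their 2 libraries and their depth, and in places exon bases, so the values describe likeness and carry no test. Ohio was closest to the N42 right femur (r = 0.88) and next to the N42 right pelvis (0.87), Zelda to the femur (0.84) and then the right pelvis (0.77), with the liver and erythroid markers given above in Zelda, and Oregon to the N215 hind limb (0.71) and then the right pelvis (0.70). Massa was closest to the N25 lung tumor (0.84), and its next value was 0.42, with the shoulder. Both Massa and the N25 tumor held the lung markers given above. Medusa (0.68), Montana (0.59), Grilka (0.67) and Prince (0.27) were closest to the N43 spine, with the shoulder, the N215 hind limb, the femur and the shoulder next. Grilka's first and second values were 0.67 alike, and Prince was like none.

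How far such a likeness follows the site can be read from the WT tumors, each set against those of other mice. The N42 right pelvis and the N43 pelvis were closest to each other (0.86). The N43 pelvis was, however, also closest to the femur (0.81), the left limb (0.84) and the shoulder (0.75) of N42, so it was the nearest to all 4 tumors of that mouse. The N215 hind limb was closest to the N42 right pelvis at 0.64, the spine to the left limb at 0.72, and the lung to the shoulder at 0.59. Over 7 pairs of WT tumors from the same mouse the median was 0.72, and over 21 pairs from different mice it was 0.53. The 7 pairs are all of N42 or N43, while the 21 also include N215 and N25. Pairs between N42 and N43 alone were 0.53 to 0.86, and pairs within a mouse were 0.55 to 0.91. The labels give the KO tumors no site, and a nearest WT tumor does not supply one. In 3 KO tumors the nearest WT tumor was one of pelvis or hind limb, a count that was 5 without the N43 spine tumor and 2 to 4 with other measures of likeness. For Massa and Montana the nearest WT tumor was the same under all 4 measures of likeness, and for the other KO tumors 2 different WT tumors were nearest across them.

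**Figure D4:**
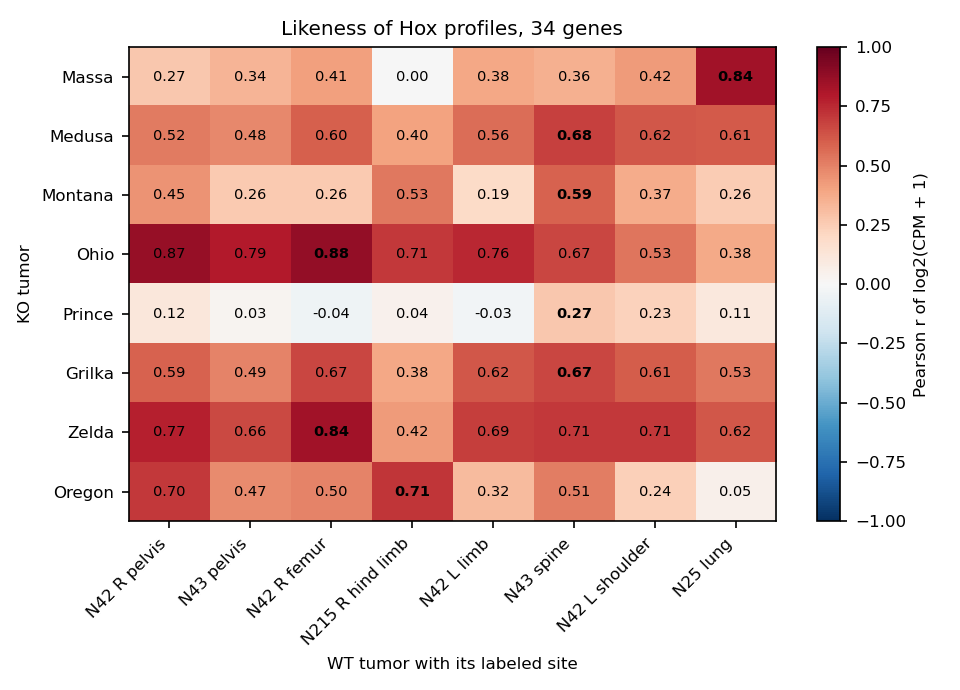
Pearson correlation of log2(CPM + 1) over the 34 Hox genes between each KO tumor (vertical axis) and each WT tumor with its labeled site (horizontal axis), with the highest of each row in bold. Ohio and Zelda reach 0.88 and 0.84 with the N42 right femur, Massa reaches 0.84 with the N25 lung tumor, and Prince stays at or below 0.27.

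Against this variation between tumors, none of the Hox genes that passed the filter on low counts was called between KO and WT. Of the 25 members that passed the filter on low counts, 0 passed an adjusted p of 0.05 in edgeR and 0 had an unadjusted p under 0.05, where 4.01% of 15413 genes passed and 23% had an unadjusted p under 0.05. Log2 fold changes were positive in 13 and negative in 12 of the 25, with a median of 0.02 against 0.10 over all genes. The largest was that of *Hoxd9*, 2.03 (SE 1.09, edgeR adjusted p = 0.274), then *Hoxd8*, 1.49 (SE 0.87, adjusted p = 0.317), and *Hoxb2*, 1.19 (SE 0.85, adjusted p = 0.421). The lowest were those of *Hoxa9*, -1.43 (SE 0.90, adjusted p = 0.358), and *Hoxa10*, -1.06 (SE 0.82, adjusted p = 0.467). Without Montana, Oregon and Prince, *Hoxd9* and *Hoxd8* turned to -2.61 and -1.30, and without Massa and Grilka, *Hoxb2* turned to -0.058. Montana and Oregon held the highest KO levels of *Hoxd8* and *Hoxd9*, and Grilka that of *Hoxb2*, so these changes follow from the omissions. No member had groups that did not overlap in CPM, against 0.415% of all genes. The 9 members left out by the filter were *Hoxa11*, *Hoxa13*, *Hoxb9*, *Hoxc11*, *Hoxc12*, *Hoxc13*, *Hoxd3*, *Hoxd10* and *Hoxd13*.

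**Figure D5:**
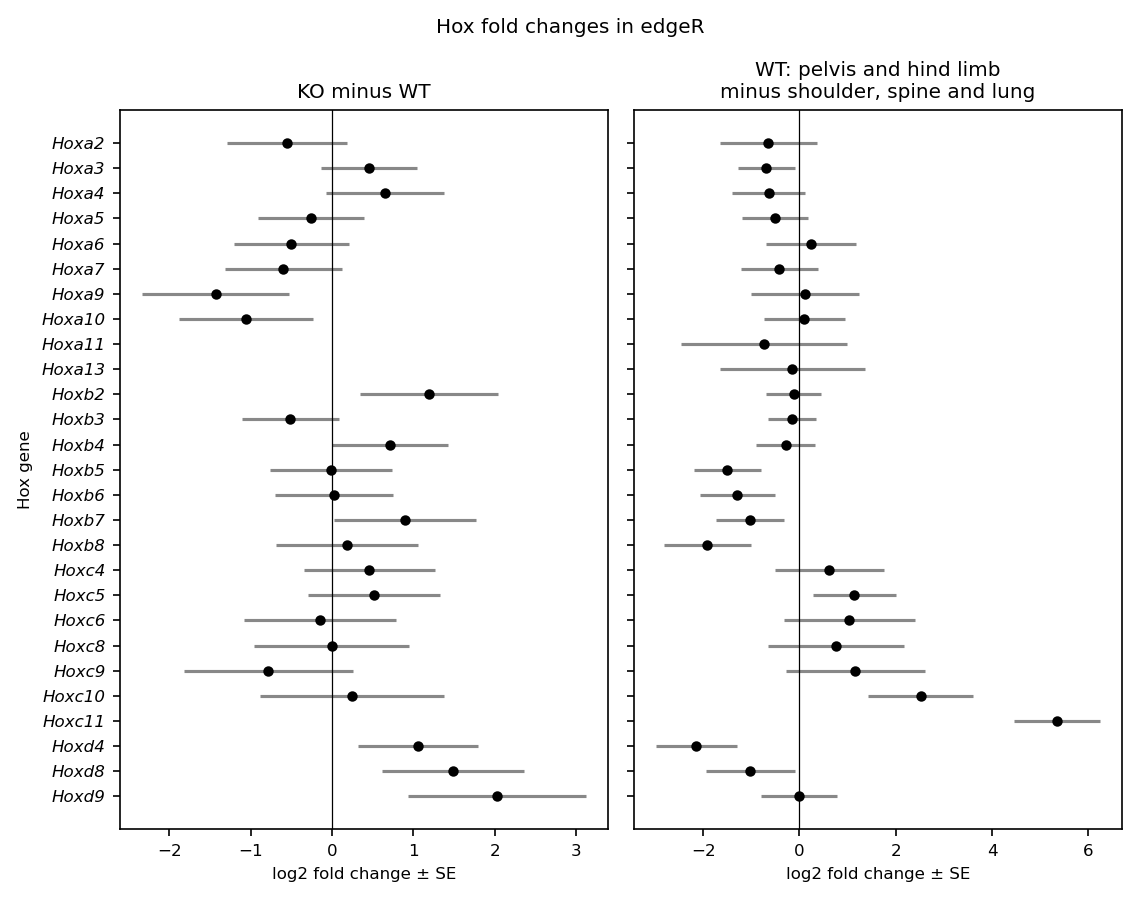
Log2 fold changes with standard errors (horizontal axis) of the tested Hox genes reported here (vertical axis), KO minus WT over 16 tumors on the left and pelvis and hind limb minus shoulder, spine and lung over 7 WT tumors on the right. On the left the values lie between -1.43 and 2.03, and on the right Hoxc11 stands apart at 5.34.

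One of those 9, *Hoxa13*, was tested in 11 of the 25 alternatives and was lower in KO at an adjusted p under 0.05 in 10. Where the filter on low counts was used, it passed through its WT counts alone. Most of the 11 are the same tumors with 1 left out, so 10 of 11 is not independent support. The *Hoxa13* counts were 7 in Ohio, 1 in Oregon and 0 in the other 6 KO tumors, and 3 to 390 in WT, so it was detected in 1 of 8 KO and 7 of 8 WT tumors. The groups overlapped, because the N215 hind limb (0.340 CPM) was below Ohio (0.668 CPM). DESeq2 gave a log2 fold change of -4.98 (SE 1.13, adjusted p = 0.000624), in a comparison that called 12.5% of 20078 genes and 1 of 29 Hox genes. edgeR without a filter gave -5.24 (SE 1.19, adjusted p = 0.0291), and called 2.71% of genes and 1 of 34 Hox genes. Without Massa and Grilka it was -5.18 (SE 1.32, edgeR adjusted p = 0.0377), where 5.36% of genes were called. Over the 11 alternatives the adjusted p was 0.000624 to 0.0839, highest without Montana, Oregon and Prince. The filter removed *Hoxa13* when the N42 tumors were left out and when counts were summed per mouse, so no fit that accounts for shared mice tested it.

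The other low genes were detected in 1 to 8 of the 16 tumors. *Hoxb9* was detected in no KO tumor and in 5 of 8 WT tumors, *Hoxa11* in 1 and 5, and *Hoxc11* in 3 and 5. *Hoxd10* and *Hoxd13* were detected in 1 KO tumor, Oregon, and in 2 WT tumors each. *Hoxc12* was detected in the N43 pelvis alone and *Hoxc13* there and in Ohio. *Hoxd3*, of the neck level, was detected in 3 WT tumors, at 5 to 11 counts and shares 9.26% of its exon bases with *Hoxd4* on the same strand. No member was at 0 in every tumor.

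The more anterior members had medians of the same order in both groups. In groups 2 and 3, *Hoxa2*, *Hoxa3*, *Hoxb2* and *Hoxb3* had medians of 1.21 to 10.4 CPM in KO and 2.87 to 13.5 CPM in WT. In groups 4 to 8, the medians of *Hoxa4* to *Hoxa7*, *Hoxb4* to *Hoxb8*, *Hoxc4*, *Hoxc5*, *Hoxc6* and *Hoxc8*, *Hoxd4* and *Hoxd8* were 0.944 to 17.1 CPM in KO and 0.679 to 11.5 CPM in WT, the highest in KO being *Hoxc6*. *Hoxa9* and *Hoxa10* had medians of 2.81 and 2.53 CPM in KO and 15.9 and 15.5 CPM in WT. In both, the ranges reached from 0 to 22.0 and 19.3 CPM in KO and from 0.904 and 1.55 to 27.5 and 19.2 CPM in WT, so the groups overlapped. For *Hoxa9* the overlap rested on Ohio (next in KO 8.95 CPM) and on the N215 hind limb and lung tumors. The other WT tumors had 13.2 CPM or more. For *Hoxa10* it rested on Oregon (next in KO 12.9 CPM) and the same WT tumors, with 12.95 CPM or more in the other WT tumors.

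The spread between tumors was wider in KO, where 8 tumors bear 8 names, than in WT, where 8 tumors came from 4 mice. Pairs of WT tumors from the same mouse, all of N42 or N43, had a median likeness of 0.72, against 0.53 over pairs from different mice. The pairs from different mice include N215 and N25, and those between N42 and N43 alone were 0.53 to 0.86. These medians therefore do not show an effect of the mouse by itself. The shallowest libraries are in KO. How far shared mice or depth made the difference in spread was not tested. The SD of log2(CPM + 1) was larger in KO in 25 of 25 Hox genes tested, with a median of 1.42 in KO and 0.86 in WT, and in 89.1% of all genes, with medians of 0.91 and 0.45. Without Massa and Grilka, the shallowest libraries, it was larger in 25 of 25 Hox genes, with medians of 1.41 and 0.86, and in 79.7% of all genes. Without Massa, Grilka and Prince, an omission chosen after seeing the data, it was larger in 15 of 25 Hox genes. The medians were then 0.92 and 0.86, and it was larger in 74.2% of all genes. Prince is the deepest KO library.

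Of the genes that work with or above Hox genes, 1 was called between KO and WT. Of the 9 Hox partners, the Pbx, Meis and Pknox homeodomain proteins that bind DNA together with Hox proteins, 8 were tested and none passed the threshold in edgeR, also none at an unadjusted p under 0.05, with a median log2 fold change of 0.23. Of the genes that act upstream of Hox, 8 were tested and 1 passed, lower in KO, where 4.01% of all genes passed and 23% had an unadjusted p under 0.05. This was *Cyp26b1*, an enzyme that degrades retinoic acid and so limits a signal that switches on Hox genes. It was 3.53 to 27.5 CPM in KO (median 8.57) and 17.2 to 175 CPM in WT (median 78.6), a log2 fold change of -2.96 (SE 0.54, edgeR adjusted p = 0.00956), and the ranges overlapped. This fit takes the 8 WT tumors, from 4 mice, as independent. It called 618 of 15413 genes, against 10 of 16007 with counts summed per mouse. With limma-voom and the mouse as a random effect 17 of 15413 were called. Values of *Cyp26b1* in those fits are not given here. *Kmt2a*, the trithorax methyltransferase that keeps Hox genes active, was 89.2 to 496 CPM in KO and 133 to 246 CPM in WT. In the comparison of WT sites none of the 8 upstream genes and none of the 8 partners passed.

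The transcription factors that mark limb type did not follow the labeled sites as a set. *Pitx1* was 0.902 CPM or more in the femur (3.07), the left limb (3.18), the N215 hind limb (0.907) and the N43 pelvis (0.902), and 0 or at 1 count in the N42 right pelvis, spine, shoulder and lung. Outside Prince, it was detected in Ohio (3.53 CPM), Oregon (3.36 CPM), Montana (1.28 CPM) and Zelda (0.543 CPM). *Tbx5*, the forelimb factor, and *Tbx4*, the hind limb factor, are both also active in lung mesenchyme, and were highest in the N25 lung tumor (19.4 and 27.7 CPM) and Massa (13.4 and 26.8 CPM). Both tumors hold the lung markers. Elsewhere *Tbx5* did not exceed 1.68 CPM, and in the shoulder tumor it was 0.886 CPM (15 counts). *Tbx4* was 7.47 CPM in the spine and 4.07 CPM in the shoulder, and 0 to 2.43 CPM in the pelvis and hind limb tumors. *Pitx1* and *Tbx4* had log2 fold changes of 5.48 and -3.74 between the WT sites, with unadjusted p of 0.0158 and 0.0175 and an adjusted p of 0.9996 in edgeR. With at most 1 count in the spine, shoulder and lung, *Pitx1* passed the filter on low counts through the pelvis and hind limb tumors alone. Its p-value is thus no independent support for a link to the site. The Hoxa neighbor *Evx1*, a homeobox gene beyond *Hoxa13*, was at 0 in every KO tumor and highest in the N43 pelvis, at 5.92 CPM, the tumor with the highest *Hoxa13*.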

How the data were processed

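RNA from 16 osteosarcomas, 8 KO and 8 WT, was depleted of ribosomal RNA and sequenced from one end. Per the study's methods, the authors aligned the reads to mm10 with Ensembl transcript models using Novoalign 2.08.01, kept the best alignments, and deposited raw counts per gene made with USeq before running DESeq2 1.26.0. The smallest gene total in the table is 6. Groups and sites came from the labels, and tumors with one animal code were taken as one mouse. Members and lists were chosen with earlier results of these data known. Gene positions and exon lengths came from GENCODE vM21 (GRCm38), where 99.7% of the genes were found. Exons of 12 members overlap another gene of the table.

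The tests were fitted to all genes with edgeR 4.0.16 in R 4.3.3 (TMM, filterByExpr with a minimum count of 10 and total of 15, glmQLFTest, two-sided, Benjamini-Hochberg threshold 0.05) without a covariate, and were tested on simulated data. DESeq2 1.42.0 and limma 3.58.1 (voom with duplicateCorrelation) were alternatives, with another scaling, no filter, sums per mouse, the mouse as a block and omission of tumors. With tumors sharing mice, p-values measure in part the spread within a mouse. No batch or date is given, so no value could be recomputed within batches. Depth was 1109487 to 16962329 counts per tumor. Likeness used Python 3.11.15 with pandas 2.3.3. The values of some genes are not reported here. The genes named were Hox genes by value or range, by a rule that puts paralog groups 9 to 13, the leading gene of each tumor and called genes first, at most 3 of any other list, and *Pitx1*, *Tbx4* and *Tbx5*. Values of *Hoxd4*, *Hoxb8*, *Cyp26b1*, *Hotair*, *Hoxa11os* and *Evx1* fall outside it and were chosen after they were seen.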

Additional observations from a re-analysis of the deposited data

Results flagged for a closer look

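The sets checked were 50 groups of 8 tumors, for 18 named Hox genes and 7 summary measures, in KO and in WT. In 17 sets 1 tumor lay far from the other 7 by Dixon's criterion. Its chance rate of about 1 of 20 assumes normally distributed values. Several of the 17 were CPM of genes near the floor, such as *Hoxc12* in KO, where 1 count in Oregon met the criterion. The 17 sets therefore cannot be compared with that rate, and do not show an excess over chance. The causes of the 17 were not tested.

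In KO, Oregon stood apart for *Hoxc10* (63.2 CPM, next 11.4), *Hoxc11* (13.98 CPM, next 4.198), *Hoxd10* (2.24 CPM), *Hoxd13* (1.40 CPM) and *Hoxc12* (0.280 CPM, 1 count). Ohio stood apart for *Hoxa9* (22.0 CPM, next 8.95), *Hoxa11* (1.24 CPM), *Hoxa13* (0.668 CPM) and *Hoxc13* (0.668 CPM). Grilka did for *Hoxb2* (124 CPM, next 34.001) and *Hoxb9* (1.34 CPM, 1 count), and Massa for *Hoxb4* (66.9 CPM, next 28.2). Grilka and Massa are the shallowest libraries.

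In WT, the N43 spine tumor stood apart for *Hoxb9* (21.6 CPM, next 7.68) and the N43 pelvis tumor for *Hoxc12* (0.752 CPM). The N215 hind limb tumor did for *Hoxc6* (55.9 CPM, next 23.5), for *Hoxa5*, where it was the lowest (1.13 CPM, next 8.56), and for the share of the Hox signal on cluster C (80.1%, next 36.5%).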

How the results depend on the processing

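The count of Hox genes past the threshold between KO and WT was 0, and became 1 (*Hoxa13*, lower in KO) with DESeq2, with no filter and without Massa and Grilka. Leaving out single tumors gave 0 to 1. Between the WT sites it was 0, became 1 (*Hoxc11*) with DESeq2, and was 0 for each tumor left out and with the mouse as a block (replicate block). The block left 0 of 17546 genes past the threshold. In that edgeR fit 7 of 30 Hox genes had an unadjusted p under 0.05, against 415 of the 17546 genes. Of the 7, 1 was higher and 6 were lower in pelvis and hind limb. No paired analysis was possible between KO and WT because the groups share no mice. The median number of genes detected moved from 21.5 to 6.5 in KO and from 28 to 8.5 in WT at the depth of the shallowest library, and stayed at 21 to 22 and 27 to 29 without single tumors. Counting groups 10 to 13 in place of 9 to 13 moved the median share from 33.0% to 22.3% in WT and from 9.95% to 3.43% in KO, and leaving out tumors gave 6.61% to 13.3% in KO and 31.5% to 34.4% in WT. The number of KO tumors nearest to a WT tumor of pelvis or hind limb was 3, and 3 to 5 with each WT tumor left out, the highest without the N43 spine.

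Log2 fold changes between KO and WT reversed with limma-voom for *Hoxb2* (-0.65), *Hoxb4* (-0.46), *Hoxc10* (-1.86) and *Hoxd9* (-0.50), without Massa and Grilka for *Hoxb2* (-0.058) and *Hoxb4* (-0.45), and without Montana, Oregon and Prince for *Hoxc10* (-1.19), *Hoxd8* (-1.30) and *Hoxd9* (-2.61). In both omissions the tumors left out include the one with the highest KO level of each gene named for it. Without Oregon, *Hoxc10* was -1.68, within a range of -1.68 to 0.46. Between the WT sites *Hoxa9* reversed with the block (-0.13) and without the lung tumor (-0.44), over a range of -0.44 to 1.04, and *Hoxa13* ranged from -2.63 without the N43 pelvis to 2.16 without the shoulder. The causes were not tested. Low genes are not seen in Massa and Grilka, where 3 counts are 6.69 and 4.03 CPM, and 3 tumors of other sites, 1 of them labeled lung, are few to represent a body.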
